A study of Mus musculus with 12 samples.

Results

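The genes described here encode collagens and other products of the connective tissue that surrounds islets, vessels and exocrine lobules in the pancreas. They were taken by name from the authors' deposited comparison table: every gene with a collagen chain symbol, and a fixed set of matrix glycoproteins, proteoglycans, crosslinking oxidases, matrix proteases and their inhibitors, and mesenchymal cell genes. This gave 49 genes of 13703 in that table, 30 collagen genes and 19 others. The count table held 44 collagen genes, and the 14 that were not in the comparison table were not analysed here.

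The samples were pancreatic islets of wild-type NOD/ShiLtJ mice, an inbred strain that develops autoimmune diabetes as lymphocytes enter the islets. The female mice had normal blood glucose at 9 weeks of age and then received weekly injections for 4 weeks, either of a control IgG or of an antibody against CD3, the signalling part of the T cell receptor, at 2.5 mg/kg. Islets were taken 2 to 3 days after the last injection and were isolated with collagenase through the bile duct, and polyadenylated RNA was sequenced. Each treatment had 6 libraries. Whether 1 mouse or a pool gave a library is not in the labels, so a p-value here reflects variation among these libraries only, which may be technical in part.

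Collagens are trimers of chains that wind around each other through a glycine-rich repeat. Fibrillar collagens (types I, III and V) form the tensile fibres of connective tissue, type IV collagen forms the sheet of basement membranes beneath epithelia and around vessels, and type VI collagen forms beaded filaments next to cells. In the pancreas, stellate cells, fibroblasts and pericytes make most fibrillar collagen, and endothelial cells contribute to the basement membrane of islet capillaries.

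Total counts were 10994337 to 19284740 per library. Acinar genes, which encode digestive enzymes, made up 32.6% of the counts in IgG 6 and 55.7% in IgG 5, against 65.2% to 73.0% in the other 10 libraries. IgG 6 stood apart in other measures too, with a count for 25828 genes against at most 20143 elsewhere. The 49 matrix genes took 0.312% of all counts in IgG 6, 0.0985% in IgG 5 and 0.0235% to 0.0783% in the others. Counted outside the acinar genes, they took 0.463% in IgG 6, 0.115% to 0.247% in the other IgG libraries and 0.0777% to 0.175% in anti-CD3. Without Col7a1, a gene singled out after its values were seen, the shares were 0.459%, 0.0953% to 0.226% and 0.0580% to 0.158%. The markers Col1a1, Col3a1 and Col6a3 were counted in every library, with at least 25, 42 and 25 reads. In tissue RNA, fewer cells of a type and less RNA per cell cannot be told apart.

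The stretches of DNA just upstream of 4 of these genes are printed first, 3 collagen genes that were among the lowest in anti-CD3 and Col7a1, which was not. Each is the 150 bases before the start of the gene in RefSeq on GRCm38.p6, in the direction of transcription, and overlaps no annotated exon. Capitals mark matches on either strand to CCAAT or to GGGCGG (a GC box) or to TATAAA. The windows are chr1:45311388-45311537 on the plus strand for Col3a1, chr2:27886275-27886424 on the plus strand for Col5a1, chr1:90843972-90844121 on the minus strand for Col6a3 and chr9:108953436-108953585 on the plus strand for Col7a1.
Col3a1: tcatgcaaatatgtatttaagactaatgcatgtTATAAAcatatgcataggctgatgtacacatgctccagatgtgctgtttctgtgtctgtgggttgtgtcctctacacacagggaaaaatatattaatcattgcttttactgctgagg
Col5a1: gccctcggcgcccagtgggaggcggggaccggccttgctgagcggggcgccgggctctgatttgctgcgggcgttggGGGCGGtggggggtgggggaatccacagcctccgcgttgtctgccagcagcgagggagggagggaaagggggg
Col6a3: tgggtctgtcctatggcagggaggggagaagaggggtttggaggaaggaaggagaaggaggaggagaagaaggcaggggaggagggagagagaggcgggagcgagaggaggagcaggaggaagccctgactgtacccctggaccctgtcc
Col7a1: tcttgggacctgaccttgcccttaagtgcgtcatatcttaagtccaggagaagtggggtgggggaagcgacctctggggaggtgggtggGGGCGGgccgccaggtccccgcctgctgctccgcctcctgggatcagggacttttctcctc
These 4 windows are unlike in composition: the Col6a3 window holds none of the 3 motifs, the Col3a1 window holds TATAAA, and those of Col5a1 and Col7a1 hold a GC box. Over the 250 bases upstream, 36 of the 49 genes had an entry in the RefSeq table, and GGGCGG or its reverse complement CCGCCC was found in 23 of the 36 (63.9%), against 32.7% of all 32851 windows of that length. CCAAT or ATTGG was found in 13 (36.1%, against 33.8%) and TATAAA or TTTATA in 5 (13.9%, against 12.4%). Lox, Loxl1, Loxl2, Col12a1, Col14a1, Col9a3, Col1a1, Col5a2, Fn1, Pdgfrb, Mmp2, Dcn and Lum had no entry. A match describes letters and not a bound site.

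Several members lie side by side in the genome. On GRCm38, Col4a1 (chromosome 8, 11198423 to 11312826, minus strand) and Col4a2 (chromosome 8, 11312805 to 11449287, plus strand) run away from each other with 22 bases of exon in common. Col3a1 and Col5a2 face each other on chromosome 1 with 24614 bases between them, Dcn and Lum lie 46984 bases apart on chromosome 10, and Col6a2 and Col6a1 85161 bases apart on the same chromosome. Col6a6, Col6a5 and Col6a4 form a row on chromosome 9. Fbn1 and Timp3 share 2442 and 1733 exonic bases with genes on the opposite strand, and without a stated strand setting reads of such pairs cannot be told apart.

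Levels between genes are compared as the deposited normalized count (counts divided by 1 size factor per library) per kilobase of annotated exon. This length joins all annotated exons of a gene, whichever transcripts are present, so the order of genes is rough. Col1a2, with 12426 such bases against 6563 for Col1a1, had the higher IgG median count (351 against 311) but 28.3 against 47.4 per kilobase. On this scale the IgG median was highest for Sparc at 188, Col4a1 at 155, Timp1 at 144 and Col4a2 at 120. Col7a1, Bgn, Timp3 and Dcn followed at 77.8, 70.4, 65.0 and 53.1, and Col1a1, Col6a1 and Col3a1 were at 47.4, 47.0 and 44.3. Col4a1 and Col4a2 thus had higher levels per length than any fibrillar chain, and Col15a1, at 50.2, was slightly above them too. Of the other basement membrane chains, Col18a1 lay below Col1a1 and Col3a1 but above Col1a2. Only Col4a5, at 2.00, was below every fibrillar chain. In anti-CD3 the medians per kilobase were 146 for Col4a1 and 108 for Col4a2, but 16.5 for Col1a1 and 16.9 for Col3a1.

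The study asked how anti-CD3 treatment affects islet transcriptomes. Of the 49 genes 45 passed the filter on low counts; Col6a4, Col9a2, Col9a3 and Col23a1 did not. Among the 45, 40 had a lower fitted value in anti-CD3 and 5 a higher one, where 55.2% of all 13115 genes tested were lower. The median log2 fold change of the 45 was -0.65, against -0.05 over all genes tested. None of the 45 passed edgeR's quasi-likelihood test at an adjusted p of 0.05 over all genes, where 0.0762% of all genes passed, 0 of them as lower. At an unadjusted p under 0.05, 13 of the 45 (28.9%) were lower, against 8.68% of all genes, and 0 were higher, against 9.68%. A log2 fold change of -1 or below was fitted for 12 of the 45 (26.7%) and for 3.58% of all genes.

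Single libraries weighed on these counts. IgG 6 had the highest normalized count of all 12 libraries for 40 of the 49 genes (81.6%), including all 19 that are not collagens, and for 24.7% of all genes in the table. The other 9 were Col4a5, Col7a1, Col9a2, Col9a3, Col11a2, Col13a1, Col20a1, Col27a1 and Col28a1. At the other end, anti-CD3 3 was the lowest library for 28 of the 49 (57.1%, against 11.6% of all genes). The count at an unadjusted p under 0.05 ranged from 5 without IgG 6 to 20 without IgG 3 when 1 library was left out. It was 3 when IgG 5 was left out together with IgG 6, a choice made with the values in view, and those 3 were Col3a1, Col6a3 and Pdgfrb. In that fit 31 of the 45 were lower, and the median of the 45 was -0.23, against -0.02 over all genes tested. With an acinar score per library as a covariate the count was 1 (Col3a1), and 23 of the 45 were lower. Acinar genes were themselves fitted lower in anti-CD3 for only 1 of 33, so this score differs between the groups. Its fit can take out treatment difference too. The shares of all genes were not computed for these refits, so their counts of members have no background beside them. The anti-CD3 median lay below the IgG median for 43 of the 49 genes (87.8%, against 53.5% of all genes), and all 6 anti-CD3 libraries lay below it for 11 (22.4%, against 12.1%). These 11 were Col1a1, Col1a2, Col3a1, Col5a1, Col5a3, Col6a1, Col6a3, Col6a4, Col15a1, Fbn1 and Pdgfrb. The groups overlapped for all 49 genes, where 0.635% of the table's genes were lower without overlap and 1.09% higher.

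**Figure D1:**
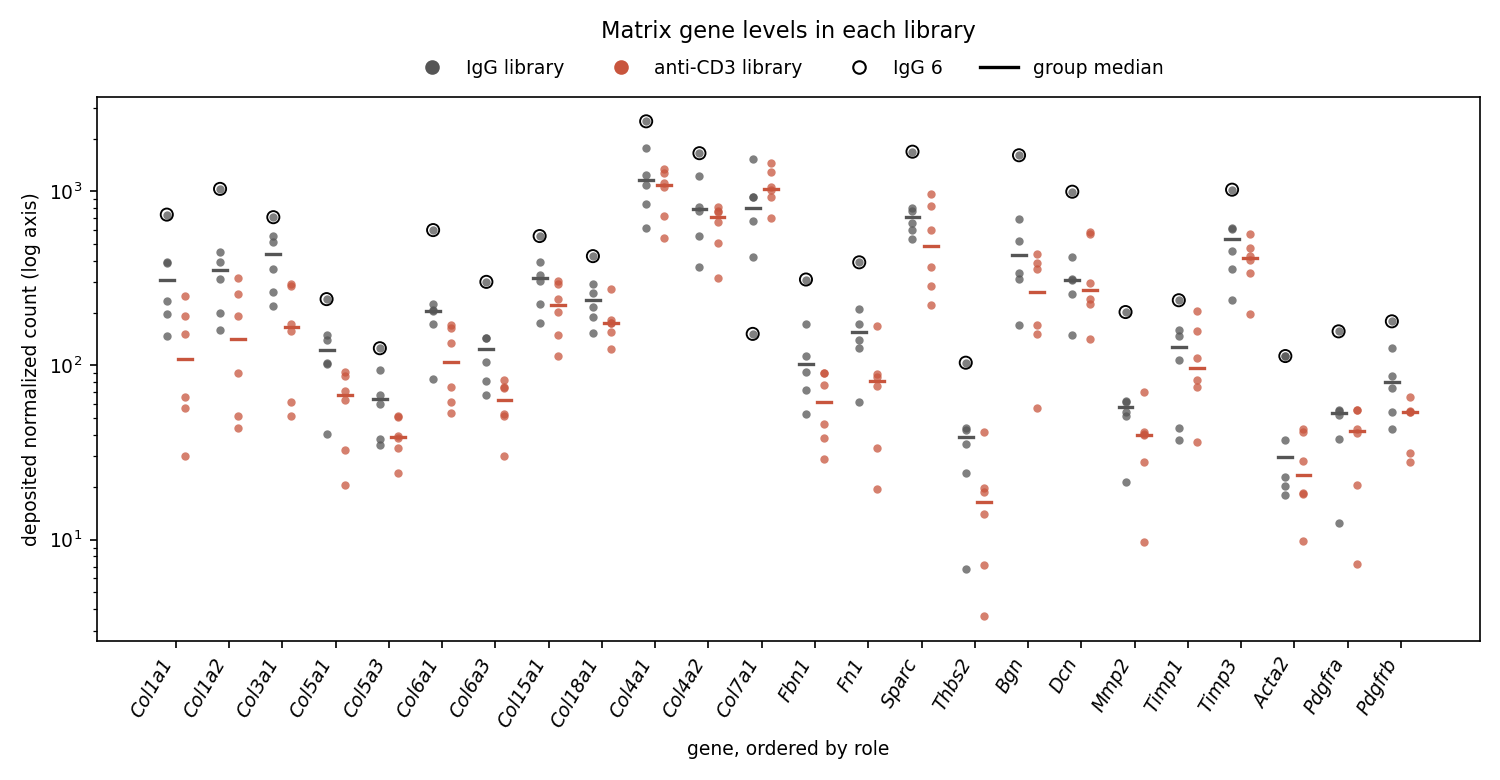
Deposited normalized count (log axis) of the 23 genes described per library and of Col7a1, ordered by role, with 1 point per library (grey IgG, red anti-CD3), a line at each group's median and a ring around IgG 6. IgG 6 is the highest point for every gene shown except Col7a1, where it is the lowest at 152, and the groups overlap for each gene.

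Fibrillar collagens had the most negative values among the collagens. Of 8 tested genes 7 were lower, with a median log2 fold change of -1.02, and 5 were lower at an unadjusted p under 0.05. Col1a1 (ENSMUSG00000001506, chromosome 11, 94936224 to 94953042), the main chain of type I collagen, had normalized counts of 147 to 734 in IgG (median 311) and 30.3 to 251 in anti-CD3 (median 109). All 6 anti-CD3 libraries were below the IgG median and 3 were below every IgG library. Its log2 fold change was -1.50 ± 0.51 (± SE, 6 libraries in each arm; edgeR, adjusted p = 0.165), or 2.83-fold lower. Col1a2 (ENSMUSG00000029661), the partner chain, had 159 to 1031 in IgG (median 351) and 43.5 to 316 in anti-CD3 (median 141), at -1.43 ± 0.55 (± SE; edgeR, adjusted p = 0.204). In anti-CD3 2 and anti-CD3 3 both chains were at 65.7 or less.

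Col3a1 (ENSMUSG00000026043, chromosome 1, 45311538 to 45349706), the single chain of type III collagen, had 219 to 709 in IgG (median 435) and 51.0 to 292 in anti-CD3 (median 166). Here 4 anti-CD3 libraries lay below every IgG library. The log2 fold change was -1.37 ± 0.44 (± SE, 6 libraries in each arm; edgeR, adjusted p = 0.146), and it was -1.29 ± 0.50 without IgG 5 and IgG 6 and -1.24 when an acinar score per library entered the fit. Among the 12 genes fitted at -1 or below, its value moved least when these libraries were left out. Col1a1 was at -1.19 ± 0.55 without them. Col5a1 and Col5a3, chains of the type V collagen that is built into type I fibrils, were at -1.09 ± 0.40 and -0.83 ± 0.31 (± SE; edgeR, adjusted p = 0.189 for both). Their normalized counts were 40.5 to 240 in IgG (median 122) against 20.6 to 92.0 (median 67.2) for Col5a1, and 34.9 to 125 (median 63.9) against 24.1 to 51.0 (median 38.7) for Col5a3. Col5a2 was at -0.94, while the minor fibrillar chains Col27a1 and Col11a2 were at -0.20 and 0.02.

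Type VI collagen was next in size. All 5 tested genes of this type were lower, with a median of -0.95, and 2 were lower at an unadjusted p under 0.05. Col6a3 (ENSMUSG00000048126, chromosome 1, 90765923 to 90843971), the long chain of the trimer, had 67.5 to 302 in IgG (median 123) and 30.3 to 82.2 in anti-CD3 (median 63.3). Its log2 fold change was -1.21 ± 0.35 (± SE, 6 libraries in each arm; edgeR, adjusted p = 0.112), the smallest p of the set, and -0.71 ± 0.28 without IgG 5 and IgG 6. Col6a1 (ENSMUSG00000001119) had 83.3 to 598 in IgG (median 206) and 53.4 to 171 in anti-CD3 (median 105), at -1.19 ± 0.44 (± SE; edgeR, adjusted p = 0.189). For both genes all 6 anti-CD3 libraries were below the IgG median. Col6a2, Col6a5 and Col6a6 were at -0.95, -0.62 and -0.72. Col6a4 had too few counts to test, with 0 in IgG 3, which allows a normalized count of up to 3.38 there for counting error alone.

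Basement membrane collagens had smaller differences. Of 5 tested genes 4 were lower (median -0.49), and 1 (Col18a1) was lower at an unadjusted p under 0.05. Col4a1 (ENSMUSG00000031502) had 618 to 2520 in IgG (median 1159) and 538 to 1336 in anti-CD3 (median 1092), so the medians were close and the groups overlapped nearly throughout. Its log2 fold change was -0.41 ± 0.32 and that of Col4a2 (ENSMUSG00000031503) -0.49 ± 0.33 (± SE, 6 libraries in each arm; edgeR, adjusted p = 0.489 and 0.437). Col4a2 had 367 to 1653 in IgG (median 792) and 316 to 814 in anti-CD3 (median 715). The 2 genes kept a near constant proportion, with 0.594 to 0.750 Col4a2 counts per Col4a1 count in IgG and 0.587 to 0.704 in anti-CD3. Without IgG 5 and IgG 6 they were at -0.11 and -0.21, and with the acinar covariate at 0.14 and 0.07. Col15a1 and Col18a1, collagens of basement membrane zones of which the latter gives rise to endostatin, were at -0.61 ± 0.29 and -0.51 ± 0.23 (± SE; edgeR, adjusted p = 0.273 and 0.269). Col15a1 had 176 to 553 in IgG (median 319) and 113 to 305 in anti-CD3 (median 221), and Col18a1 had 153 to 424 (median 239) and 124 to 274 (median 175).

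**Figure D2:**
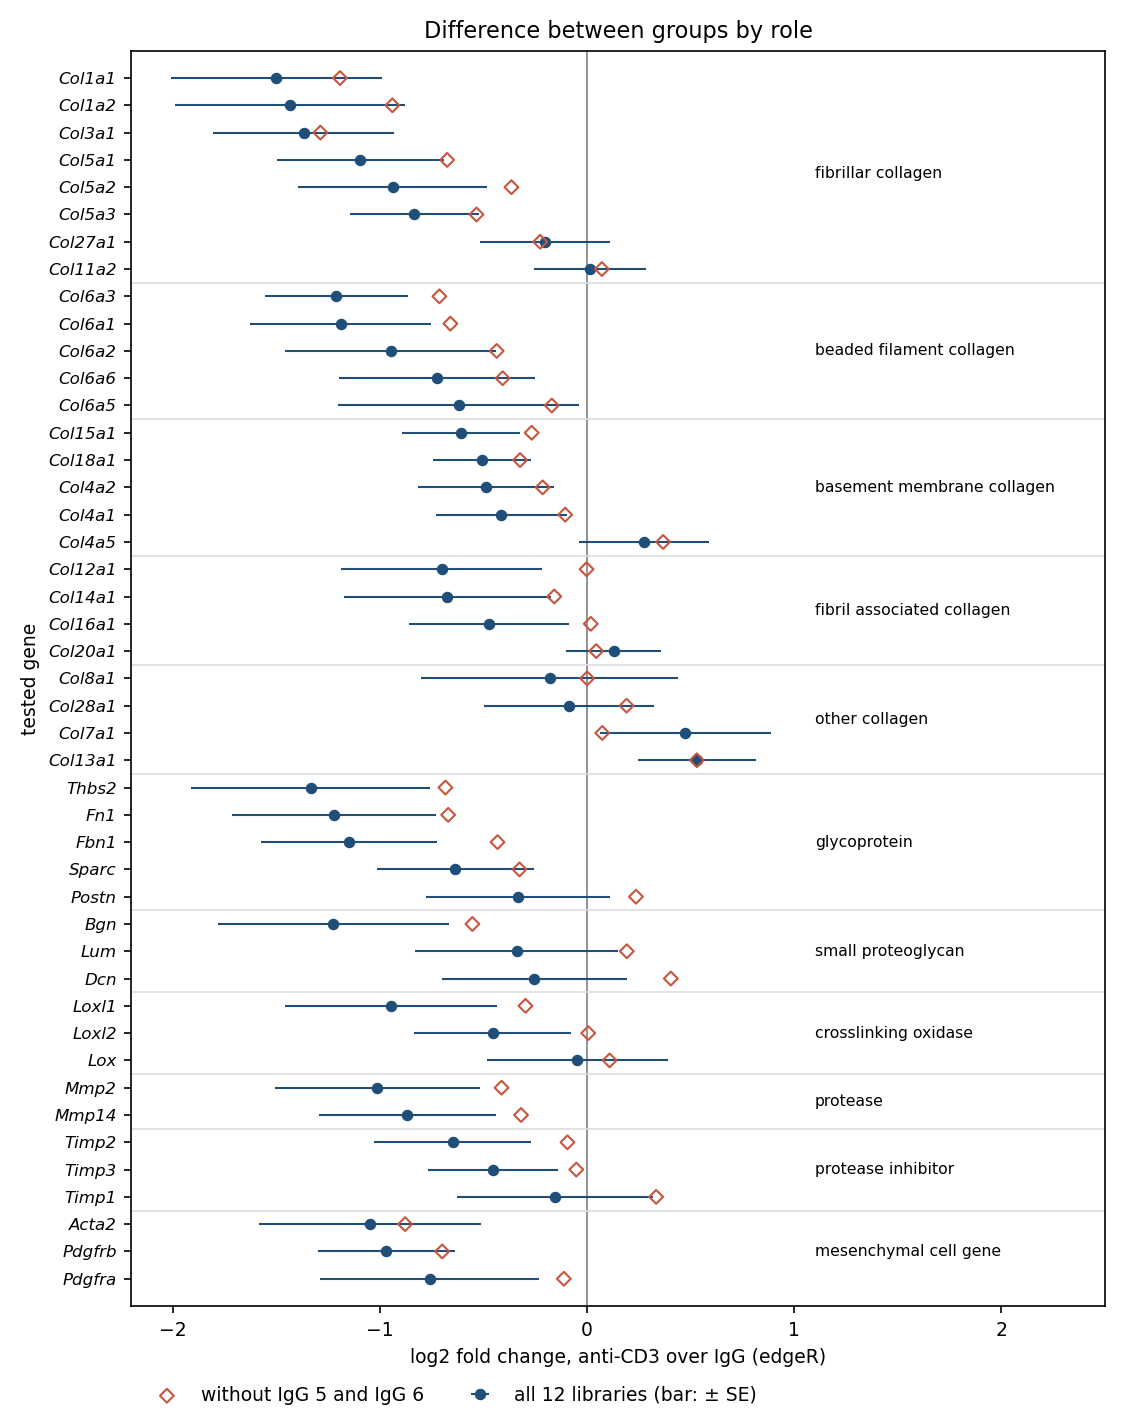
Fitted edgeR log2 fold change (anti-CD3 relative to IgG) for the 45 tested genes, grouped by role, with all 12 libraries (filled circles, bars show ± SE) and without IgG 5 and IgG 6 (open diamonds). Col1a1 and Col3a1 stay at -1.19 and -1.29 without these libraries, while Dcn, Lum, Postn and Timp1 are among the genes whose value turns positive.

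The remaining collagens were mixed. Of 4 tested fibril-associated collagens 3 were lower, with a median of -0.57, and it was 0.01 without IgG 5 and IgG 6. Of 4 other tested collagens 2 were higher, Col7a1 and Col13a1, and the median was 0.19. Col7a1 (ENSMUSG00000025650, chromosome 9, 108953586 to 108984875) encodes the anchoring fibril collagen that fastens the epidermal basement membrane to the dermis. It was singled out after its values were seen. It had 152 in IgG 6 and 419 in IgG 5 and 676 to 1541 in the other IgG libraries, against 702 to 1448 in anti-CD3 (median 1032). Its 2 lowest libraries were the 2 with the lowest acinar share. They were also the 2 lowest in summed duct markers, at 3049 in IgG 6 and 5093 in IgG 5. The part of either in this was not tested. For Col3a1, IgG 6 was the highest library and IgG 5, at 264, was below the IgG median. The log2 fold change of Col7a1 was 0.47 ± 0.41 (± SE, 6 libraries in each arm; edgeR, adjusted p = 0.546), or 0.07 when IgG 5 and IgG 6 were left out. The acinar covariate gave -0.18. It made up 0.76% of the counts of the 49 genes in IgG 6 and 25.3% in anti-CD3 3. Col13a1, a transmembrane collagen also named after its values were seen, had 22.5 to 92.3 in IgG (median 59.0) and 56.8 to 121 in anti-CD3 (median 76.3), at 0.53 ± 0.28 (± SE; edgeR, adjusted p = 0.329).

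**Figure D3:**
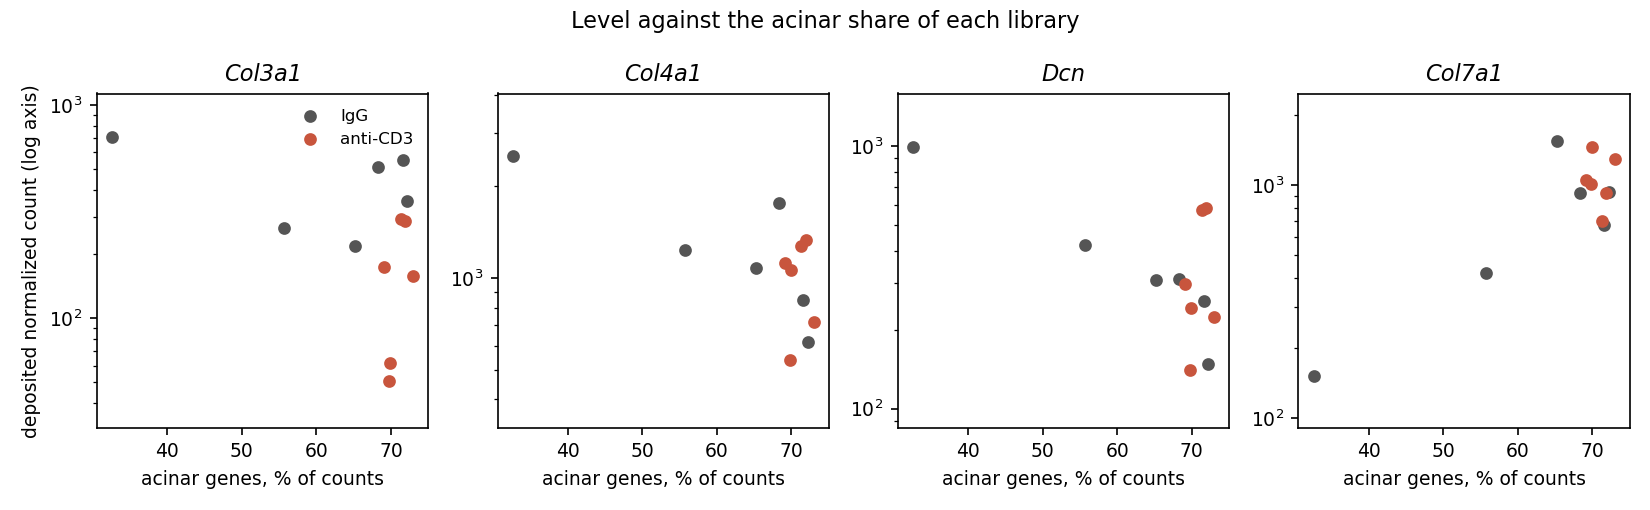
Deposited normalized count (log axis) of Col3a1, Col4a1, Dcn and Col7a1 in each library against the share of its counts in acinar genes, with IgG in grey and anti-CD3 in red. The libraries at 32.6% and 55.7% are IgG 6 and IgG 5; IgG 6 is the highest point for Col3a1, Col4a1 and Dcn and the lowest for Col7a1.

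The 5 matrix glycoproteins all had lower fitted values (median -1.15), and 3 were lower at an unadjusted p under 0.05. Fn1, the cell-adhesive glycoprotein fibronectin, had 61.9 to 391 in IgG (median 156) and 19.4 to 169 in anti-CD3 (median 81.0), at -1.22 ± 0.49 (± SE, 6 libraries in each arm; edgeR, adjusted p = 0.218). Fbn1, the microfibril protein fibrillin, had 52.9 to 311 (median 102) and 29.1 to 90.3 (median 61.5), at -1.15 ± 0.42 (± SE; edgeR, adjusted p = 0.190). It was at -0.43 without IgG 5 and IgG 6 and at -0.16 with the acinar covariate. Thbs2, a matricellular thrombospondin, was at -1.33 ± 0.58 (± SE; edgeR, adjusted p = 0.244) on low counts, 3 to 261 reads per library; its normalized counts were 6.75 to 104 in IgG (median 38.8) and 3.64 to 41.5 in anti-CD3 (median 16.4). Sparc, a collagen-binding glycoprotein, was at -0.63 ± 0.38 (± SE; edgeR, adjusted p = 0.387), with 529 to 1687 in IgG (median 713) and 221 to 962 in anti-CD3 (median 482). Postn, periostin, was at -0.33 ± 0.45 and at 0.24 without IgG 5 and IgG 6.

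Among the small leucine-rich proteoglycans, which bind collagen fibrils and limit their width, Bgn and Dcn differed. Bgn (biglycan) had 170 to 1609 in IgG (median 429) and 57.0 to 437 in anti-CD3 (median 265), at -1.22 ± 0.56 (± SE, 6 libraries in each arm; edgeR, adjusted p = 0.268), and at -0.55 without IgG 5 and IgG 6. Dcn (decorin; ENSMUSG00000019929, chromosome 10, 97479609 to 97518143) had 149 to 994 in IgG (median 310) and 141 to 581 in anti-CD3 (median 270). Its log2 fold change was -0.25 ± 0.45 (± SE; edgeR, adjusted p = 0.786), 0.23 without IgG 6 and 0.40 ± 0.40 without IgG 5 and IgG 6. Lum (lumican) was at -0.34 ± 0.49 and at 0.19 without these 2 libraries. The sign for decorin and lumican thus turned with IgG 6 alone, while Col3a1 and Col1a1 stayed at -1.59 to -1.18 and -1.81 to -1.14 whichever 1 library was left out.

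Ratios between 2 genes of the same library do not depend on scaling. They were chosen after the values were seen and are given without a test. Col1a1 counts per Dcn count were 0.635, 1.25, 0.992, 1.51, 0.561 and 0.739 in IgG 1 to IgG 6, and 0.432, 0.272, 0.216, 0.507, 0.253 and 0.337 in anti-CD3 1 to anti-CD3 6. The groups did not overlap in this ratio, and the medians, 0.866 and 0.305, differed 2.84-fold. Col1a2, Col6a1, Col6a3 and Fbn1 per Dcn did not overlap either, with medians that differed 2.46-fold, 1.99-fold, 1.75-fold and 1.85-fold. Of the 48 other matrix genes these 5 (10.4%) were lower relative to Dcn without overlap, against 29 of the table's other 13702 genes (0.212%). Dcn was itself highest in IgG 6 and lowest in anti-CD3 3, as were many of these matrix genes, so the 2 shares are not a like comparison. Some gaps were narrow: Col6a3 per Dcn was at most 0.252 in anti-CD3 and at least 0.265 in IgG, and Col1a2 per Dcn at most 0.643 and at least 0.647.

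The result depended on the denominator. Of the 11 glycoproteins, proteoglycans and mesenchymal cell genes of the set, Dcn gave 5 such genes, Postn 1 (Col1a1) and the other 9 none. Col3a1 per Dcn overlapped in 1 anti-CD3 library, with 0.631 to 2.40 in IgG and 0.255 to 0.703 in anti-CD3. Col4a1 per Dcn did not separate the groups, at 2.54 to 5.67 in IgG (median 3.41) and 2.23 to 4.41 in anti-CD3 (median 3.48). Lum per Dcn was 0.123 to 0.280 in IgG and 0.0517 to 0.278 in anti-CD3. Col3a1 per Col4a1 was 0.203 to 0.653 in IgG, highest in IgG 3 and IgG 4, and 0.0579 to 0.230 in anti-CD3, with overlap.

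**Figure D4:**
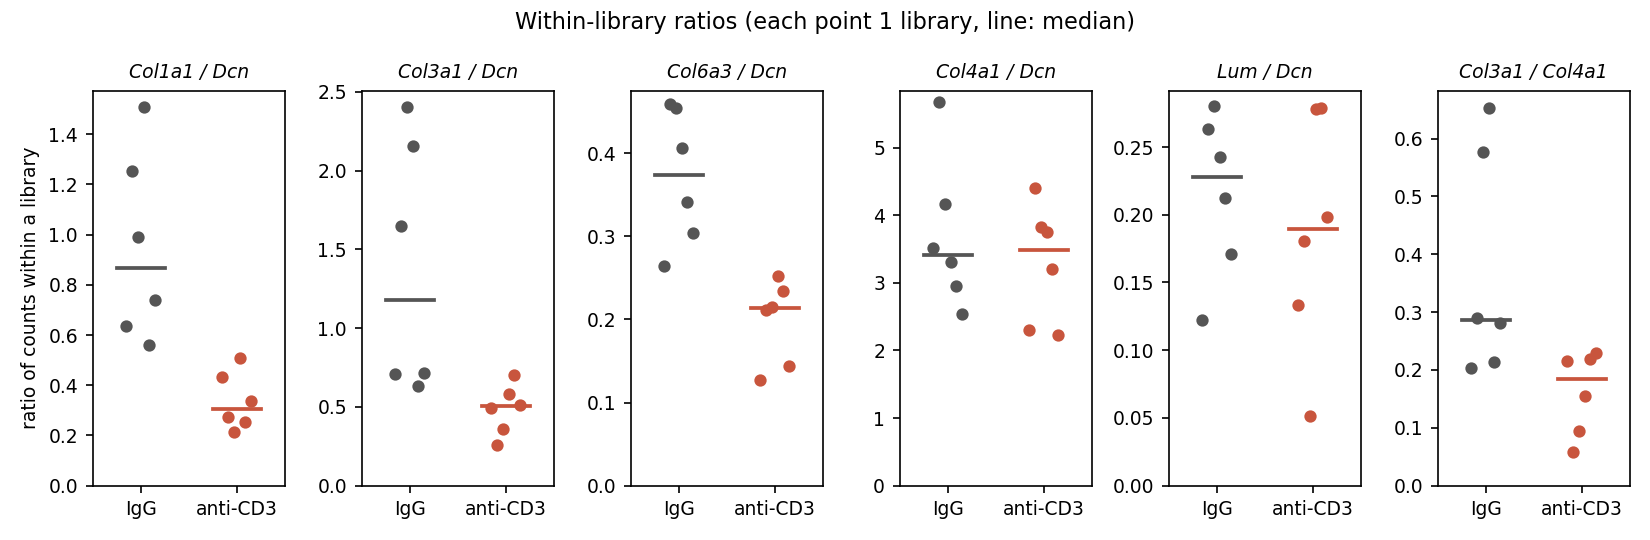
Ratios of the counts of 2 genes within each library, IgG in grey and anti-CD3 in red, with 1 point per library and a line at the median; each panel has its own axis from 0. Col1a1 and Col6a3 per Dcn do not overlap between groups, while Col4a1 and Lum per Dcn do.

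All 8 genes that crosslink or degrade matrix or inhibit its proteases had lower fitted values, and 0 reached an unadjusted p under 0.05. The 3 oxidases that crosslink collagen and elastin had a median of -0.45. Mmp2, the gelatinase A gene, had 21.4 to 202 in IgG (median 57.6) and 9.71 to 70.4 in anti-CD3 (median 40.1), at -1.01 ± 0.50 (± SE, 6 libraries in each arm; edgeR, adjusted p = 0.293), and -0.41 without IgG 5 and IgG 6. Mmp14, the membrane protease that activates the Mmp2 product, was at -0.87 ± 0.43. The 3 inhibitors of matrix proteases had a median of -0.45. Timp3, which binds to matrix, had 238 to 1021 (median 530) and 197 to 570 (median 414), at -0.45 ± 0.31 (± SE; edgeR, adjusted p = 0.448). Timp1 had 37.1 to 237 in IgG (median 128) and 36.4 to 206 in anti-CD3 (median 96.4), at -0.15 ± 0.47 (± SE; edgeR, adjusted p = 0.883).

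The 3 genes that mark mesenchymal cells had lower fitted values (median -0.97). Pdgfrb, the platelet-derived growth factor receptor of pericytes and stellate cells, had 43.2 to 179 in IgG (median 80.6) and 27.9 to 65.7 in anti-CD3 (median 54.0), with all 6 anti-CD3 libraries below the IgG median. Its log2 fold change was -0.97 ± 0.33 (± SE, 6 libraries in each arm; edgeR, adjusted p = 0.162) and -0.70 ± 0.32 without IgG 5 and IgG 6. Pdgfra, the receptor of fibroblasts, had 12.4 to 157 (median 53.4) and 7.28 to 55.4 (median 42.0), at -0.76 ± 0.53 (± SE; edgeR, adjusted p = 0.449) and -0.11 without these libraries. Acta2, the smooth muscle actin of activated stellate cells and vessel walls, had 18.0 to 113 (median 29.9) and 9.85 to 43.3 (median 23.4), at -1.05 ± 0.54 (± SE; edgeR, adjusted p = 0.311). IgG 1 and IgG 6 were both at 113 and the other 4 IgG libraries at 18.0 to 37.1.

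DESeq2, the tool named in the submitters' processing notes, called 3 of the 49 genes. It gave Col6a3 at -1.21 ± 0.36, Col3a1 at -1.36 ± 0.41 and Col1a1 at -1.49 ± 0.47 (± SE, 6 libraries in each arm; DESeq2, adjusted p = 0.0273, 0.0322 and 0.0415). These were 3 of 44 genes with an adjusted p (6.82%), against 1.12% of all genes that were called lower. In the authors' deposited table the adjusted p was 0.0259, 0.0295 and 0.0384 for the same 3, or 8.33% of 36 against 1.31% of all genes. The fold changes of the tools were alike and the calls differed.

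Genes of collagen assembly outside the set were split in direction. Of 30 tested genes for hydroxylation, folding, export and processing of procollagen, 16 were lower and 14 higher, with a median of -0.04. None passed edgeR over all genes in either direction. At an unadjusted p under 0.05, 0 were lower and 5 higher, against 8.68% and 9.68% of all genes tested. P4ha1 and P4ha2, catalytic subunits of prolyl 4-hydroxylase, were at 0.55 ± 0.22 and 0.65 ± 0.26 (± SE, 6 libraries in each arm; edgeR, adjusted p = 0.204 and 0.205). P4ha1 had 276 to 664 in IgG (median 426) and 499 to 814 in anti-CD3 (median 690). 

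Of 18 tested genes of transforming growth factor beta signalling, a main inducer of collagen transcription, 15 were lower, with a median of -0.26. Among all genes tested, 55.2% were lower. Of the 18, 0 passed edgeR over all genes and 4 were lower at an unadjusted p under 0.05, against 8.68% of all genes. Tgfbi, a matrix protein induced by this pathway, had 109 to 685 in IgG (median 214) and 52.2 to 186 in anti-CD3 (median 91.2), at -1.55 ± 0.43 (± SE, 6 libraries in each arm; edgeR, adjusted p = 0.111; 0.0103 in DESeq2). Tgfb2, a ligand, had 65.3 to 92.0 in IgG (median 88.0) and 19.4 to 62.0 in anti-CD3 (median 56.5), at -0.70 ± 0.24 (± SE; edgeR, adjusted p = 0.159). The groups did not overlap for Tgfb2, and its IgG 6 value, 88.1, was not the highest. It was printed for its small p, and 0.635% of the genes in the comparison table were lower without overlap.

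Laminins and other basement membrane genes had 10 of 13 tested genes lower, where 55.2% of all genes were lower, and a median of -0.49. Of these genes 0 passed edgeR over all genes and 6 were lower at an unadjusted p under 0.05. Among all genes tested, 8.68% were lower and 9.68% higher at that p. Lamc1, a laminin chain, had 487 to 757 in IgG and 379 to 475 in anti-CD3, without overlap, at -0.44 ± 0.13 (± SE, 6 libraries in each arm; edgeR, adjusted p = 0.123). Integrin genes had 11 of 15 lower, with a median of -0.26. None of them passed edgeR over all genes; 3 were lower and 2 higher at an unadjusted p under 0.05. The 2 with the smallest p, Itgb8 and Itga5, were at -0.71 ± 0.29 and -0.65 ± 0.27 (± SE; edgeR, adjusted p = 0.218 for both). Other matrix proteases and inhibitors had 8 of 10 lower and 0 past edgeR over all genes. At an unadjusted p under 0.05, 1 was lower and 1 higher. Mmp19 was at -1.59 ± 0.64, and the sheddase gene Adam10 at 0.48 ± 0.14 (± SE, edgeR, adjusted p = 0.215 and 0.115). For Adam10 the DESeq2 adjusted p was 0.0347. Adam10 had 456 to 705 in IgG and 729 to 972 in anti-CD3, also without overlap but higher. Without overlap, 0.635% of the genes in the comparison table were lower and 1.09% higher. Of 4 platelet-derived growth factor ligands 3 were lower and 0 passed, with Pdgfc at -0.83 ± 0.40 and Pdgfa at 0.48 ± 0.31 (± SE; edgeR, adjusted p = 0.283 and 0.408).

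Markers of several cell types had lower values too, and their part in the differences of the matrix genes was not tested. Of the genes of these lists 0 passed edgeR over all genes, and 55.2% of all genes tested were fitted lower. Stellate cell and fibroblast markers outside the set were lower for 7 of 7 tested genes. Their summed normalized count was 663 to 5923 in IgG, highest in IgG 6, and 350 to 2298 in anti-CD3, lowest in anti-CD3 3. This list includes Thy1 and Vim, which are not particular to these cells, and Des, which is also in the pericyte list, so its sum does not measure these cells alone. Pericyte and smooth muscle markers were lower for 8 of 9 (643 to 2235 and 474 to 1440). Endothelial markers were lower for 10 of 13, but the median of their summed count was 2778 in IgG and 2860 in anti-CD3. Summed general leukocyte, T cell and macrophage markers were also highest in IgG 6 and lowest in anti-CD3 3: all 5 general leukocyte genes were lower (200 to 6528 in IgG and 119 to 1702 in anti-CD3), as were 15 of 15 T cell genes and 10 of 10 macrophage genes. B and plasma cell genes were lower for 8 of 9, but their summed count had a higher median in anti-CD3 (3729, against 2465 in IgG) and was lowest in IgG 3, at 628. Other lists were not mostly lower: acinar genes were lower for 1 of 33, regenerating protein genes for 0 of 6 and duct genes for 4 of 8. Mesothelial genes were lower for 1 of 2, Schwann cell genes for 1 of 4 and the adipocyte gene for 0 of 1. Lymphatic endothelial genes were lower for 3 of 4. The summed duct count had a median of 7003 in IgG and 8456 in anti-CD3. Of all listed markers only Ccl21a, a lymphatic endothelial gene, was at 0 in every library. Hormone and other endocrine markers summed to 232034 to 344908 in IgG and 211202 to 375344 in anti-CD3.

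The other 26 members, described by their range, had IgG medians of 6.87 (Col23a1) to 800 (Col7a1). The 22 of them that were tested had log2 fold changes between -0.95 (Col6a2) and 0.53 (Col13a1).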

How the data were processed

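Islet RNA of 12 NOD libraries, 6 IgG and 6 anti-CD3 by their titles, was analysed from 2 deposited tables. Reads were processed with Trimmomatic 0.36, STAR 2.5.2b, featureCounts of Subread 1.5.2 and DESeq2 on GRCm38 (mm10), per the submitters' processing notes; neither strand setting nor multimapping is stated there. The authors deposited whole-number counts for 49315 genes. Their comparison table holds a normalized signal, the count times 1 constant per library, with a log2 fold change and p-values by the authors. Of per-sample columns 0 were unmapped; 1 carried an unexplained prefix.

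Counts were fitted in R 4.3.3 with edgeR 4.0.16 (filterByExpr with minimum count 10 and total 15, TMM, robust quasi-likelihood F test, two-sided, Benjamini-Hochberg over 13115 genes). Each SE is the fold change divided by the root of F. Counting error is smallest for genes with most reads: Col4a1 had 443 to 6348 reads per library, Pdgfra 6 to 395. Exon lengths came from GENCODE M21. Alternatives were DESeq2 1.42.0, RLE factors, TMM without acinar, regenerating protein, hormone and leukocyte genes, CPM above 1 in 6 libraries, no filter, a replicate block, an acinar score covariate, a transcript length offset (lowess span 0.3) and each library left out. Leaving out IgG 5 and IgG 6 together was chosen after the data were seen. The procedure was tested on simulated data. No 2 libraries of a group were alike beyond sampling noise (chi-square per degree of freedom at least 10.1 over 30 pairs).

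Genes described per library were a panel of 20 plus every member with an unadjusted edgeR p under 0.05, 23 in all; for pathway lists, the 2 smallest p, of which 1 gene is not reported here. Other members with a printed value, Col7a1, Lum, Postn and Col13a1 among them, were picked after their values were seen. The members and lists were chosen with earlier results of these data known.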

Additional observations from a re-analysis of the deposited data

Results flagged for a closer look

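Of 46 groups of 6 libraries (23 genes in each treatment group), 1 held a library set far from the rest on the log2 scale of the normalized count plus 1. Chance alone flags about 1 in 20 groups, so 1 of 46 is no more than chance gives. The flagged group was Sparc in IgG, where IgG 6 had 1687 and the other 5 libraries 529 to 799. The gap took 0.644 of the whole range, above Dixon's critical value for 6 samples.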

How the results depend on the processing

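In edgeR 0 members passed under the main setting and under each of its alternatives, the omission of each library included, while DESeq2 called 3 lower. Of all 13115 genes 0 passed as lower in the main edgeR fit. With the replicate block or the acinar covariate 0 genes passed in either direction. The most that passed as lower in an edgeR fit was 24, without anti-CD3 2. For the alternative edgeR fits, shares of all genes fitted lower or lower at an unadjusted p were not computed. With the replicate number as a block 0 passed, the median over tested members was -0.63, and 22 members were lower at an unadjusted p under 0.05, against 13 without the block. Whether equal numbers mark paired libraries is not known, and these values do not settle it. Deviations of same-numbered libraries correlated between -0.287 and 0.552, and 5 of 12 correlated best with their own number. The median over tested members was -0.78 to -0.31 when 1 library was left out (-0.31 without IgG 6) and -0.52 with the length offset. With the acinar score as a covariate it was -0.00094, against -0.015 over all genes. The median of fibrillar collagens was then -0.40, of type VI -0.14, of basement membrane collagens 0.066, of fibril-associated collagens 0.14, of glycoproteins -0.16 and of crosslinking oxidases 0.24. Acinar genes were themselves fitted lower in anti-CD3 for only 1 of 33, so the score differs between the groups. Its fit can take out treatment difference along with differences in acinar content, and these values cannot separate the 2. With this covariate 23 of the 45 tested members were fitted lower, against 40 without it; genes whose sign turned included Col4a1 (0.14), Col4a2 (0.066), Col7a1 (-0.18), Dcn (0.68), Lum (0.34), Pdgfra (0.20), Postn (0.39), Timp1 (0.55) and Timp3 (0.050). Over the 12 omissions the range was -0.46 to 0.23 for Dcn, -0.56 to 0.026 for Lum, -0.62 to 0.17 for Postn and -0.41 to 0.15 for Timp1. Without IgG 6, 33 were lower, and the sign turned among others for Dcn (0.23), Lum (0.026), Postn (0.17) and Timp1 (0.15). Without IgG 5 and IgG 6, 31 were lower, with turns among others for Dcn (0.40), Lum (0.19), Postn (0.24) and Timp1 (0.33). Without anti-CD3 3, 37 were lower, with a turn among others for Timp1 (0.031). The cause was not tested. Members of under 30 reads in a library are limited by counting error there. Besides Thbs2 and Pdgfra, these include Col1a1 and Col6a3 (both 25 reads at the lowest), Fbn1 (24), Pdgfrb (22), Col5a1 (17) and Fn1 (16).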
